A study of Homo sapiens with 6 samples.

Results

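The core circadian clock was examined as 10 genes, CLOCK, ARNTL, PER1, PER2, PER3, CRY1, CRY2, NR1D1, NR1D2 and DBP, of the 58884 genes listed in the deposited table. They were taken by name for their known roles in the clock, with earlier results of these data already known. Names in the table gave 9 of them, ARNTL being the older symbol of BMAL1. PER1 was found by its Ensembl identifier, ENSG00000179094, because the table lists that identifier under the name AC129492.1. RNA-seq was carried out on 6 libraries of immortalized human cardiomyocytes without sorting, grown at 37 °C in medium with 10% fetal bovine serum. In 3 libraries the cells had received negative control siRNA (NC_1 to NC_3), and in the other 3 an siRNA against CIRBP (SiCIRBP_1 to SiCIRBP_3). CIRBP is a cold-inducible RNA-binding protein, and binding of CLOCK mRNA by it is known from other cells. The labels name the line T0519, whereas the study's text names AC16 cells for its RNA-seq. Neither a treatment to align the clocks of the cells nor an hour of harvest is given in the sources used here, so each library is 1 reading at an unknown phase. Nothing says that the 3 libraries of a group came from separate cultures, and the p-values below then measure only the spread between these libraries, which may be technical.

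In the mammalian clock, CLOCK and ARNTL form a dimer that binds E-box sequences and activates the PER, CRY, NR1D and DBP genes. PER and CRY proteins return to the nucleus and inhibit that dimer. NR1D1 and NR1D2, also called REV-ERBα and REV-ERBβ, are nuclear receptors that repress ARNTL through elements they share with the ROR activators, and DBP activates genes through D-boxes. The loop runs in most cells, cardiomyocytes and cultured fibroblasts included, and PER1 also responds acutely to cAMP, serum and glucocorticoids.

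The study left NC_1 and SiCIRBP_2 out of its RNA-seq comparison because libraries of a group differed, so fold changes were computed for the 4 libraries NC_2, NC_3, SiCIRBP_1 and SiCIRBP_3 and for all 6. Leaving out libraries for their expression values narrows the spread within groups, so p-values over the 4 libraries may be too small. Totals lay between 25726259 and 29919566 estimated counts per library. CIRBP itself had 86.4, 85.8 and 91.0 normalized counts (CPM, counts scaled to library size) in NC_1 to NC_3 and 54.8, 24.3 and 46.3 in SiCIRBP_1 to SiCIRBP_3, with no overlap between the groups. Its log2 fold change was −0.81 ± 0.11 (SE; adjusted p = 0.00828, edgeR) over 4 libraries and −1.07 over 6 (adjusted p = 0.103, edgeR). RBM3, the other cold-inducible RNA-binding protein, had a log2 fold change of −0.11 ± 0.22 over 4 libraries and 0.06 ± 0.23 over 6. SiCIRBP_2 stood apart in 20 interferon-stimulated genes, whose summed level was 5974.2 CPM there. The sum was 590 to 616 CPM in the NC libraries, 335 CPM in SiCIRBP_1 and 1117.3 CPM in SiCIRBP_3. The last 2 libraries are both in the comparison of 4 and differed from each other. Of 16 cardiomyocyte markers 12 had fewer than 10 counts in every library, among them TNNT2, MYH7 and TTN, and MYH6, MYL2, RYR2 and PLN were at 0 throughout. The markers averaging at least 1 CPM were ACTN2, GATA4 and NKX2-5, and TNNI3 had at most 1.07 CPM. Of 10 fibroblast markers 7 averaged at least 1 CPM, and their list summed to between 2180.8 CPM (SiCIRBP_2) and 6066.3 CPM (SiCIRBP_3). Among the markers, GATA4 (−0.41), NKX2-5 (−1.24) and PDGFRA (−0.38) fell over the 4 libraries on the log2 scale. COL1A1 (0.87), CD68 (0.64) and VWF (2.56, under 1 CPM) rose there. Over 6 libraries edgeR called none of them, as it called 0 of all 15217 tested genes. DESeq2 over 6 called 1 fibroblast and 1 immune marker higher, where 635 of all genes were called higher. In endothelial and immune lists of 5 genes each, 2 and 2 averaged at least 1 CPM. The part of these other signals in the clock gene values was not tested, and in bulk RNA fewer cells of a type and less RNA per cell cannot be told apart.

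The sequences before the starts of the 3 genes called lower over 4 libraries are shown first, picked by that result. The clock's own factors act in such regions, and their part in the fall was not tested. RefSeq promoter windows of 300 bases (250 before to 50 after a start, GRCh38.p14) were matched for all 10 genes and gave 15 windows, because some genes have several starts. Each window was searched on both strands for the E-box CACGTG, the D-box (TTATGTAA or TTACGTAA), the ROR element core (TAGGTCA or TGGGTCA) and the cAMP response element TGACGTCA. Below are PER1, NR1D1 and both starts of NR1D2, the 3 genes that fell, and the first start of PER3, which has a D-box and did not pass the test. Each run holds only the bases before the start that lie in no annotated exon of GENCODE 29, read 5′ to 3′ on the gene's strand, with motif matches in capitals.
PER1, minus strand, chr17:8152436-8152654: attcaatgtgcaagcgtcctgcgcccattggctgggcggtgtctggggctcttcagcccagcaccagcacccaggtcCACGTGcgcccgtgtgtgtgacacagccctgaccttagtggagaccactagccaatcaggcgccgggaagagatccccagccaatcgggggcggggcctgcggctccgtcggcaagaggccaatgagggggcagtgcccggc
NR1D1, minus strand, chr17:40100726-40100839: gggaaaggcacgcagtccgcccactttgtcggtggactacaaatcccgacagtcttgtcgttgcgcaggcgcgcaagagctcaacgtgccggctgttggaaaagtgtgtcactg
NR1D2, the first start, plus strand, chr3:23945036-23945259: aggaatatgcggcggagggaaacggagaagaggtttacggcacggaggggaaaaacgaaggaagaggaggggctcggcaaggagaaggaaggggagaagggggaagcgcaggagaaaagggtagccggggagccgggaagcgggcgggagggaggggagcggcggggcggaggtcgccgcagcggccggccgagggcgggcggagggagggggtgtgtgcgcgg
NR1D2, the second start, plus strand, chr3:23945871-23946120: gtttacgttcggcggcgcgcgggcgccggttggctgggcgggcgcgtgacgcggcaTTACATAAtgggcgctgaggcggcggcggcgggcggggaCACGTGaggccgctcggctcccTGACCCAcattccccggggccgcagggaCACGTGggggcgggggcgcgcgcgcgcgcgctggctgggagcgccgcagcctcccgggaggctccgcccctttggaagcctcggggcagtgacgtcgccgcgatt
PER3, the first start, plus strand, chr1:7784041-7784290: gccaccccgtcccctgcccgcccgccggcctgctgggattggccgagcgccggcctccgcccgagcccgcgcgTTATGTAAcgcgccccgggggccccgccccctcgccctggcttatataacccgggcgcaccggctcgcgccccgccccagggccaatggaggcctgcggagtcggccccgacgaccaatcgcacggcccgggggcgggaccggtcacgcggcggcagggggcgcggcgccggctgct

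PER1 holds an E-box from −173 to −168, counted from its start. The second start of NR1D2 holds E-boxes from −155 to −150 and from −105 to −100, a D-box on the other strand from −194 to −187 and a ROR core on the other strand from −133 to −127. The first start of PER3 holds a D-box from −177 to −170. The window of NR1D1 and that of the first start of NR1D2 hold none of these letters. Among the windows not printed, PER2 holds a D-box across its start (−3 to 4), and ARNTL, CRY2 and CLOCK each hold a ROR core at the second start, that of ARNTL from 30 to 36. Windows of CRY1 and DBP hold none, and the cAMP response element occurs in 0 of the 15 windows. Of all 35116 RefSeq windows, 7.26% hold the E-box, 1.01% the D-box, 5.69% the ROR core and 1.85% the cAMP response element. A match of letters is a description and not a site, and its absence concerns only this window.

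Of the 10 clock genes, NR1D2, PER1 and NR1D1 fell in SiCIRBP over the 4 libraries. NR1D2 fell by 57.2%, PER1 fell by 48.0% and NR1D1 fell by 43.6%, and no member was called higher. All 10 passed the expression filter. The 3 called genes stand beside 9.76% of 15421 tested genes that were called lower at an adjusted p under 0.05 (19.4% in either direction). Of the 10, 1 was called at least 2-fold lower, where 1.8% of all tested genes were. The members had a median log2 fold change of −0.20 (median size 0.25), against −0.00 (0.30) for all tested genes. Over all 6 libraries, edgeR called none of the 10, nor any of the 15217 tested genes (0.0%), while 3 members and 3603 genes had an unadjusted p under 0.05. DESeq2 over the same 6 libraries called 2 members lower, PER1 and NR1D2, where 4.9% of all genes were called lower.

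**Figure D1:**
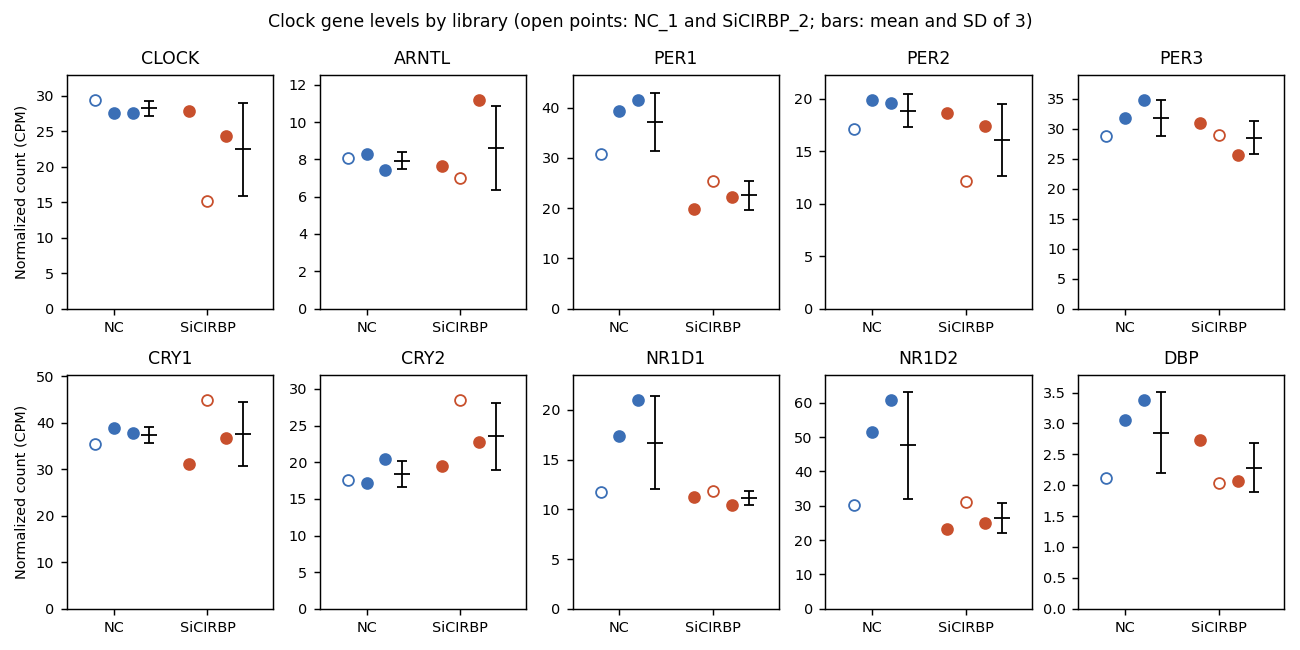
Normalized count (CPM, linear axis from 0) of each clock gene in each library, with the mean and SD of 3 libraries per group. Open points are NC_1 and SiCIRBP_2. For PER1 the SiCIRBP libraries sit between 19.9 and 25.5 CPM and the NC libraries between 30.7 and 41.6, while for NR1D1 and NR1D2 the open NC point lies at the level of the SiCIRBP points.

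NR1D2 is the REV-ERBβ receptor, a repressor of ARNTL. It had 30.3, 51.6 and 60.8 CPM in NC_1 to NC_3 and 23.1, 31.2 and 25.0 CPM in SiCIRBP_1 to SiCIRBP_3. NC_1 lay inside the SiCIRBP range, just below SiCIRBP_2, and the groups did not overlap once either of these libraries was left out. Over 4 libraries the means were 56.2 ± 6.51 and 24.1 ± 1.39 CPM (SD, n = 2 each), and the log2 fold change was −1.22 ± 0.12 (SE; adjusted p = 0.00476, edgeR). Over 6 libraries it was −0.85 ± 0.25 (adjusted p = 0.122, edgeR; 0.0239, DESeq2), and an exact permutation test of 3 against 3 libraries gave p = 0.2 (two-sided, where 0.1 is the smallest possible). NR1D2 lies on chromosome 3 from 23945260 to 23980618, on the plus strand of GRCh38, and no other annotated exon overlaps its own.

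NR1D1 is REV-ERBα, the paralog with the same repressor role. Its levels were 11.7, 17.4 and 21.0 CPM in NC_1 to NC_3 and 11.2, 11.8 and 10.4 CPM in SiCIRBP_1 to SiCIRBP_3. As for NR1D2, NC_1 fell within the SiCIRBP range, which spanned little. The log2 fold change was −0.83 ± 0.14 over 4 libraries (adjusted p = 0.0153, edgeR) and −0.58 ± 0.22 over 6 (adjusted p = 0.172, edgeR; 0.108, DESeq2). NR1D1 (chromosome 17, 40092787 to 40100725, minus strand) shares 263 exon bases, 9.5% of its exons, with THRA on the other strand, and strand use in the counting is not given in the sources used here. THRA, the thyroid hormone receptor alpha gene, had 38.7, 41.4 and 38.3 CPM in NC_1 to NC_3 and 40.0, 22.0 and 39.4 CPM in SiCIRBP_1 to SiCIRBP_3. Its log2 fold change was −0.01 ± 0.10 over 4 libraries (adjusted p = 0.972, edgeR) and −0.22 over 6 (adjusted p = 0.552, edgeR).

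PER1, an inhibitor of the CLOCK and ARNTL dimer and an acutely inducible gene, had 30.7, 39.3 and 41.6 CPM in NC_1 to NC_3 and 19.9, 25.5 and 22.2 CPM in SiCIRBP_1 to SiCIRBP_3. Every SiCIRBP library was below every NC library, which held for PER1 alone among the 10 and for 16.6% of all tested genes. The log2 fold change was −0.94 ± 0.11 over 4 libraries (adjusted p = 0.00669, edgeR) and −0.72 ± 0.16 over 6 (adjusted p = 0.0975, edgeR; 0.00689, DESeq2). With SiCIRBP_2 alone left out it was −0.82 ± 0.15 (adjusted p = 0.0292, edgeR), the only member called in those 5 libraries, where 3.63% of genes were called lower. The exact permutation test of all 6 gave p = 0.1, the smallest that 3 against 3 allows. PER1 lies on chromosome 17 from 8140472 to 8156506 on the minus strand and shares 30 exon bases with AC129492.3, which had 2.17 to 5.65 CPM.

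Leaving out 1 of the 4 libraries moved the calls more than the fold changes. Without NC_3 none of the 3 was called, at log2 fold changes of −0.90 for PER1, −1.10 for NR1D2 and −0.69 for NR1D1 (adjusted p = 0.0996, 0.0657 and 0.194, edgeR), where 0.403% of all genes were called. Without NC_2 only NR1D2 was called, at −1.34 (adjusted p = 0.0284, edgeR), with PER1 at −0.99 and NR1D1 at −0.96, where 1.04% of all genes were called. Leaving out SiCIRBP_1 kept all 3 and added PER3 (lower), ARNTL and CRY2 (both higher), where 44.3% of all genes were called. Leaving out SiCIRBP_3 kept all 3 and added CRY1 (lower), where 40.2% were called. In these fits a group of 1 library is assumed to vary like the other group.

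**Figure D2:**
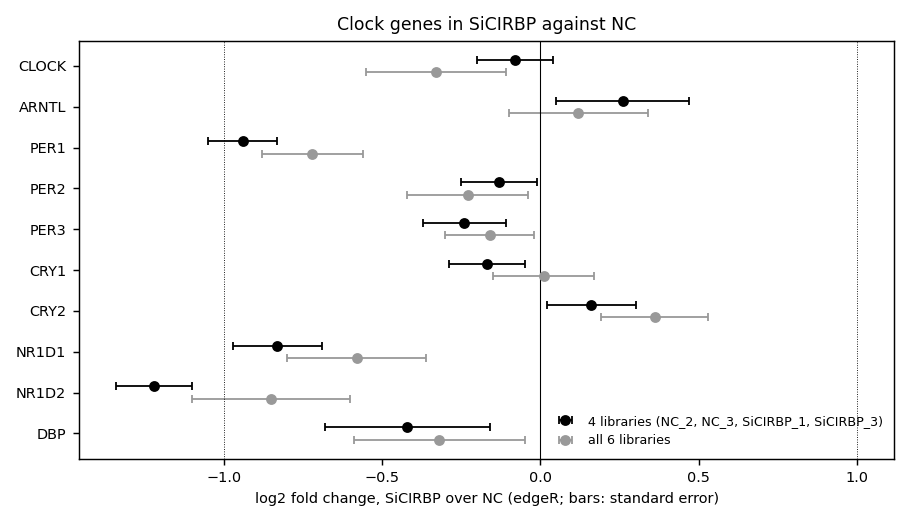
Log2 fold change of SiCIRBP over NC (edgeR, bars are standard errors) for each clock gene over 4 libraries (black) and all 6 (grey); dotted lines mark a 2-fold change. NR1D2, PER1 and NR1D1 stand at −1.22, −0.94 and −0.83 over 4 libraries and nearer to 0 over 6, at −0.85, −0.72 and −0.58.

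The other PER genes encode the partners of PER1 in the inhibiting complex, and neither passed the test. PER2 had 17.1, 19.9 and 19.6 CPM in NC_1 to NC_3 and 18.6, 12.2 and 17.4 CPM in SiCIRBP_1 to SiCIRBP_3. Its lowest value was in SiCIRBP_2 and the groups overlapped, with a log2 fold change of −0.13 ± 0.12 over 4 libraries and −0.23 ± 0.19 over 6. PER3 had 28.8, 31.8 and 34.8 CPM in NC_1 to NC_3 and 30.9, 29 and 25.6 CPM in SiCIRBP_1 to SiCIRBP_3. Its groups overlapped through NC_1, and the log2 fold change was −0.24 ± 0.13 over 4 libraries and −0.16 ± 0.14 over 6. PER3 shares 868 exon bases with UTS2 and 482 with Z98884.1 on the other strand, both of which were near 0 (at most 0.04 and 0.32 CPM).

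CLOCK, the activator whose mRNA CIRBP is known to bind, had 29.4, 27.6 and 27.6 CPM in NC_1 to NC_3 and 27.8, 15.1 and 24.3 CPM in SiCIRBP_1 to SiCIRBP_3. SiCIRBP_1 lay among the NC values, and SiCIRBP_2 was the lowest, at −0.86 in log2(CPM + 1) against the NC mean. The log2 fold change was −0.08 ± 0.12 over 4 libraries (adjusted p = 0.653, edgeR) and −0.33 ± 0.22 over 6 (adjusted p = 0.371, edgeR). ARNTL, its partner and the target of NR1D1 and NR1D2, had 8.10, 8.27 and 7.41 CPM in NC_1 to NC_3 and 7.64, 7.0 and 11.2 CPM in SiCIRBP_1 to SiCIRBP_3. The highest value was in SiCIRBP_3 and the lowest in SiCIRBP_2, on either side of the NC range. Its log2 fold change was 0.26 ± 0.21 over 4 libraries (adjusted p = 0.418, edgeR) and 0.12 ± 0.22 over 6, on 180 to 313 counts per library, and without SiCIRBP_3 it was −0.04 over the 3 libraries left.

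CRY1 and CRY2, the strong inhibitors of the dimer, did not pass the test. CRY1 had 35.4, 38.8 and 37.7 CPM in NC_1 to NC_3 and 31.2, 44.9 and 36.8 CPM in SiCIRBP_1 to SiCIRBP_3. The SiCIRBP libraries lay on both sides of the NC range, and the log2 fold change was −0.17 ± 0.12 over 4 libraries but 0.01 ± 0.16 over 6. CRY2 had 17.6, 17.1 and 20.5 CPM in NC_1 to NC_3 and 19.5, 28.5 and 22.7 CPM in SiCIRBP_1 to SiCIRBP_3. Its log2 fold change was 0.16 ± 0.14 over 4 libraries and 0.36 ± 0.17 over 6 (adjusted p = 0.254, edgeR), and SiCIRBP_2 held the highest value of both CRY genes. DBP, the D-box activator, had 2.12, 3.06 and 3.38 CPM in NC_1 to NC_3 and 2.74, 2.04 and 2.07 CPM in SiCIRBP_1 to SiCIRBP_3. With 52 to 103 counts per library it was the member with the fewest, and its log2 fold change of −0.42 ± 0.26 over 4 libraries did not pass the test (adjusted p = 0.277, edgeR), nor did −0.32 ± 0.27 over 6 (adjusted p = 0.481, edgeR). DBP shares 661 exon bases, 10.1% of its exons, with SPHK2 on the other strand, whose log2 fold change was 0.29 ± 0.12 over 4 libraries (adjusted p = 0.141, edgeR) and 0.33 over 6 (adjusted p = 0.175, edgeR).

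Single libraries shaped the members in different ways. NC_1 was below the mean of NC_2 and NC_3 for 8 of 10 members. In log2(CPM + 1) the difference was largest for NR1D2 (−0.86), NR1D1 (−0.67), DBP (−0.44) and PER1 (−0.39). For CLOCK and ARNTL NC_1 was slightly above (0.09 and 0.04). SiCIRBP_2 held the lowest CPM of 4 members, CLOCK, ARNTL, PER2 and DBP, and the highest of 2, CRY1 and CRY2. NC_3 held the highest of 5. The span from the lowest to the highest library was 2.63-fold for NR1D2, 2.09-fold for PER1, 2.01-fold for NR1D1 and 1.95-fold for CLOCK, and 1.36-fold for PER3, the narrowest of the 10.

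Levels can be compared between genes only per transcript length, as in the deposited TPM values. The mean TPM over 6 libraries was 18.8 for CRY1, 14.9 for PER1, 9.71 for NR1D2, 8.44 for CRY2, 7.87 for PER3, 7.40 for NR1D1, 5.34 for ARNTL, 4.05 for CLOCK, 3.70 for PER2 and 3.61 for DBP. In this order the ranges of every neighbouring pair overlapped, so no neighbours were apart. CRY1 ranged from 14.3 to 22.4 TPM and DBP from 2.64 to 4.44 TPM, so the ends of the order did not overlap. CRY1 stood at percentile 60.9 of the tested genes and DBP at 30.9, so the members were of middle to low abundance. When levels were taken as CPM per kilobase of the deposited length, only 3 of the 10 genes kept their place, CRY1, ARNTL and DBP.

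The count and TPM values told the groups apart differently. In TPM, every SiCIRBP library was below every NC library for 5 members, CLOCK, PER1, PER3, NR1D1 and NR1D2, against 1 in CPM, and for 22.6% of all tested genes. CLOCK had 4.80, 4.77 and 5.77 TPM in NC_1 to NC_3 and 3.75, 2.24 and 2.99 TPM in SiCIRBP_1 to SiCIRBP_3, whereas its counts overlapped. On the log2(TPM + 1) scale CLOCK had a log2 fold change of −0.52 ± 0.19 over 4 libraries (adjusted p = 0.127, limma) and −0.63 ± 0.20 over 6 (adjusted p = 0.145, limma), so neither passed. On the TPM scale the median log2 fold change of all genes was −0.08 over 4 libraries and −0.11 over 6. In edgeR on counts it was −0.0 and 0.01. ARNTL, CRY1 and CRY2 were below 0 on the TPM scale in both sets of libraries. Over 4 libraries in log2(TPM + 1), NR1D2 and PER1 were called at −1.17 and −0.88 (adjusted p = 0.029 and 0.0331, limma), where 7.83% of all genes were. NR1D1 stood at −0.80 (adjusted p = 0.0504, limma), and with a pseudocount of 0.1 it was called at −0.90 (adjusted p = 0.0463, limma).

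**Figure D3:**
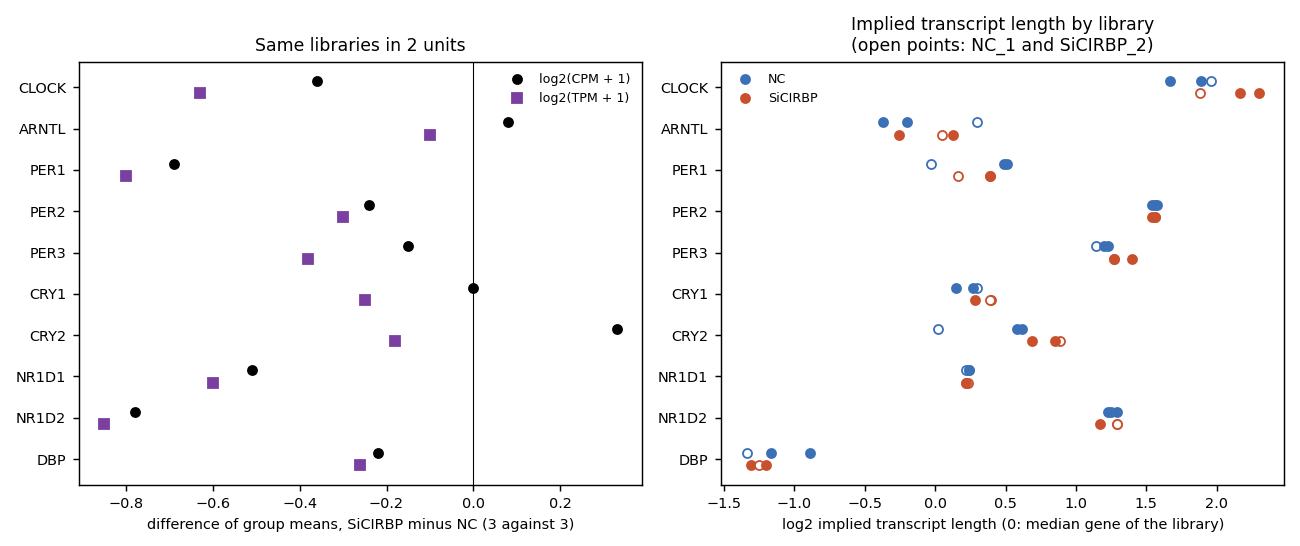
Left, difference of group means (SiCIRBP minus NC, 3 libraries each) of every clock gene in log2(CPM + 1) and in log2(TPM + 1); right, log2 implied transcript length in each library relative to the median gene, with NC_1 and SiCIRBP_2 as open points. CLOCK stands at −0.36 in CPM and −0.63 in TPM, CRY2 changes side from 0.33 to −0.18, and the points of PER2 and NR1D1 on the right nearly coincide.

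The ratio of estimated count to TPM is proportional to the transcript length that the counting assigned to a gene in a library. Its log2, set to 0 at the median gene of each library, was 1.96, 1.89 and 1.67 for CLOCK in NC_1 to NC_3 and 2.17, 1.88 and 2.30 in SiCIRBP_1 to SiCIRBP_3. The longest values were in SiCIRBP_1 and SiCIRBP_3, and SiCIRBP_2 lay inside the NC range. The change over 4 libraries was 0.46 ± 0.11 on the log2 scale (adjusted p = 0.286, limma), and over 6 it was 0.28 ± 0.14 (adjusted p = 0.511, limma). For CRY2 the log2 values were 0.02, 0.62 and 0.58 in NC_1 to NC_3 and 0.69, 0.89 and 0.85 in SiCIRBP_1 to SiCIRBP_3, with NC_1 far below the rest. The CRY2 change was 0.17 ± 0.07 over 4 libraries (adjusted p = 0.448, limma) and 0.40 ± 0.18 over 6 (adjusted p = 0.471, limma). NR1D1, which has 1 annotated transcript, lay between 0.22 and 0.24 in every library, and PER2 between 1.54 and 1.58. CLOCK has 4 protein-coding transcripts of 746 to 10304 bases in GENCODE 29, and CRY2 has 4 of 1936 to 4204 bases. No member and no gene passed the limma test of implied length over 4 libraries (0.0% of 12469 genes), where 1799 genes had an unadjusted p under 0.05.

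Across the 6 libraries, NR1D2 was compared with every gene by the root mean square difference of log2(CPM + 1) after each gene was centred. The closest of 15216 genes were FBXO32 (0.09), SLC2A1 (0.092) and BDNF (0.107). FBXO32, a ubiquitin ligase subunit of muscle protein breakdown, had 10.7, 16.3 and 19.1 CPM in NC_1 to NC_3 and 8.18, 10.2 and 7.59 CPM in SiCIRBP_1 to SiCIRBP_3. SLC2A1, a glucose transporter, fell by 1.23 on the log2 scale over 4 libraries, and BDNF, a neurotrophin, fell by 1.27 (adjusted p = 0.00262 each, edgeR). These genes were picked for this likeness, so the features of the NR1D2 profile that they share are not findings about them. Among the members the closest to NR1D2 was PER1 (0.174, rank 35 of 15216 genes). PER1 and NR1D1 were each other's closest member at 0.166, where NR1D1 ranked 184 among all genes for PER1 and PER1 ranked 222 for NR1D1. CLOCK and PER2 (0.137, ranks 549 and 1198), PER3 and DBP (0.109, ranks 655 and 233) and CRY1 and CRY2 (0.185, ranks 3229 and 2056) were also mutual closest members, so many genes outside the clock were closer to each than the other member was. These are descriptions over 6 libraries that share the same group difference.

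**Figure D4:**
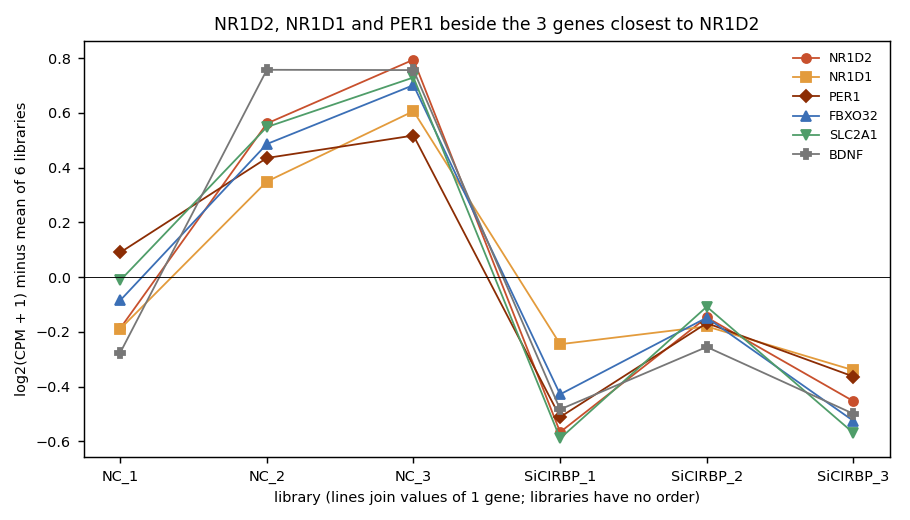
Log2(CPM + 1) minus the mean of 6 libraries for NR1D2, NR1D1, PER1 and the 3 genes closest to NR1D2, in each library. All 6 genes are above 0 in NC_2 and NC_3 and below 0 in the 3 SiCIRBP libraries, with NC_1 between −0.276 (BDNF) and 0.09 (PER1).

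Other genes linked to the clock or to PER1 were taken from 6 lists of 56 genes in all, chosen with earlier results of these data known. They include 10 cAMP and serum responsive genes and 6 glucocorticoid responsive genes, listed because PER1 shares these inputs and not as clock genes. Over 4 libraries 48 were tested, and 15 fell and 1 rose, beside the 9.76% of all genes called lower. Their median log2 fold change was −0.28. Of the 15, 5 were at least 2-fold lower, where 1.8% of all tested genes were. The cAMP and serum responsive list held 6 of the 15 and 4 of the 5, and the glucocorticoid responsive list held 1 of the 15. Over 6 libraries edgeR called 0 of 47 (16 at an unadjusted p under 0.05). DESeq2 called 11 lower and 1 higher, where 4.9% of all genes were called lower.

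Of the loop partners, which can stand in for members or oppose NR1D1 and NR1D2, 3 of 5 were tested and 1 fell. The share of all genes called lower was 9.76%. ARNTL2, the paralog of ARNTL, had 37.2, 34.9 and 33.8 CPM in NC_1 to NC_3 and 24.4, 53.6 and 27.4 CPM in SiCIRBP_1 to SiCIRBP_3. It fell by 0.41 on the log2 scale over 4 libraries (adjusted p = 0.0477, edgeR), but SiCIRBP_2 was the highest of all libraries and the value over 6 was −0.01. NPAS2, the paralog of CLOCK, had a log2 fold change of 0.17 ± 0.12 over 4 libraries and 0.06 ± 0.21 over 6. RORB, a ROR activator, was at 0 in every library, and RORA, its paralog, was below 1 CPM in all.

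Of the repressors and D-box factors, 5 of 6 were tested and 2 fell, where 9.76% of all genes did. NFIL3, the D-box repressor that opposes DBP, had 51.9, 79.7 and 79.5 CPM in NC_1 to NC_3 and 43.4, 46.0 and 37.5 CPM in SiCIRBP_1 to SiCIRBP_3. Every SiCIRBP library was below every NC library, and NC_1 was again the lowest of its group. NFIL3 fell by 0.98 ± 0.10 on the log2 scale over 4 libraries (adjusted p = 0.00542, edgeR), with −0.73 over 6 (adjusted p = 0.105, edgeR; 0.0128, DESeq2). CIART, a repressor of the dimer, fell by 0.75 ± 0.18 over 4 libraries (adjusted p = 0.0312, edgeR) and stood at −0.36 over 6. BHLHE41, an E-box repressor, had 0.27 ± 0.15 over 4 libraries and 0.13 ± 0.20 over 6.

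Of 16 kinases, ubiquitin ligases and other regulators of PER and CRY proteins, 15 were tested and 2 fell, where 9.76% of all genes did. SIRT1, a deacetylase that acts on PER2, had 56.8, 80.2 and 81.8 CPM in NC_1 to NC_3 and 48.8, 48.3 and 48.6 CPM in SiCIRBP_1 to SiCIRBP_3. It fell by 0.73 ± 0.08 on the log2 scale over 4 libraries (adjusted p = 0.00624, edgeR), with −0.59 ± 0.16 over 6 (adjusted p = 0.109, edgeR; 0.0269, DESeq2). FBXW11, a ligase subunit that recognises phosphorylated PER, fell by 0.47 ± 0.08 (adjusted p = 0.0142, edgeR), with −0.39 ± 0.11 over 6 (adjusted p = 0.117, edgeR; 0.0484, DESeq2). TIMELESS had −0.37 ± 0.11 over 4 libraries (adjusted p = 0.0591, edgeR) and −0.35 ± 0.13 over 6. The casein kinases were not called.

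Of 13 output genes, 10 were tested, and 3 fell and 1 rose. Of all 15421 tested genes, 9.76% were called lower and 1484 higher. KLF9, a transcription factor that follows glucocorticoid and clock input, had 7.82, 11 and 11.2 CPM in NC_1 to NC_3 and 3.22, 3.50 and 2.99 CPM in SiCIRBP_1 to SiCIRBP_3. The groups were far apart with and without NC_1 and SiCIRBP_2. KLF9 fell by 1.83 ± 0.17 on the log2 scale over 4 libraries (adjusted p = 0.00465, edgeR), and over 6 the value was −1.63 (adjusted p = 0.0853, edgeR; 7.53e-08, DESeq2). NAMPT, the enzyme that limits NAD salvage, fell by 0.87 ± 0.10 over 4 libraries (adjusted p = 0.00605, edgeR), whereas over 6 the value was −0.41 ± 0.25 and no test called it (adjusted p = 0.332, edgeR; 0.314, DESeq2). It had 72.1 CPM in SiCIRBP_2, above the 53.2 CPM of NC_1. VEGFA, an angiogenic growth factor, fell by 0.75 ± 0.18 over 4 libraries (adjusted p = 0.0305, edgeR), with −0.87 ± 0.28 over 6 (adjusted p = 0.133, edgeR; 0.0281, DESeq2). PPP1R3C, a glycogen-targeting subunit of protein phosphatase, rose by 0.44 ± 0.10 over 4 libraries (adjusted p = 0.0272, edgeR), with 0.43 ± 0.11 over 6 (adjusted p = 0.103, edgeR; 0.023, DESeq2). PPARGC1A and PDK4 were at 0 in every library.

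Of 10 cAMP and serum responsive genes, the class to which PER1 also belongs, all were tested and 6 fell, 4 of them at least 2-fold. Among all genes, 9.76% were called lower and 1.8% at least 2-fold lower. NR4A2, an orphan nuclear receptor, had 1.30, 5.36 and 6.0 CPM in NC_1 to NC_3 and 0.753, 1.67 and 0.784 CPM in SiCIRBP_1 to SiCIRBP_3. NR4A1, its paralog, had 15.9, 32.0 and 32.5 CPM in NC_1 to NC_3 and 8.87, 10.4 and 7.56 CPM in SiCIRBP_1 to SiCIRBP_3. SIK1, a kinase that restrains CREB-driven transcription, had 55.6, 127 and 126 CPM in NC_1 to NC_3 and 44.3, 51.8 and 37.2 CPM in SiCIRBP_1 to SiCIRBP_3. In all 3 genes NC_1 was well below NC_2 and NC_3, as for NR1D2, and for NR4A2 it lay inside the SiCIRBP range. Over 4 libraries NR4A2 fell by 2.88 ± 0.25, NR4A3 by 2.55 ± 0.24, NR4A1 by 1.97 ± 0.13 and SIK1 by 1.63 ± 0.11 on the log2 scale (adjusted p = 0.00399, 0.00465, 0.00262 and 0.00262, edgeR). SIK1 is uncertain because a near-identical copy, SIK1B, can take its reads. DUSP1 (−0.70) and JUNB (−0.49) also fell over 4 libraries. Over 6 DUSP1 was at −0.63, but JUNB was at 0.01, with its highest value, 70.4 CPM, in SiCIRBP_2. FOS had −0.68 ± 0.26 over 4 libraries (adjusted p = 0.111, edgeR) and −0.89 ± 0.26 over 6. Over 6 libraries NR4A2 stood at −1.98, NR4A3 at −2.01, NR4A1 at −1.59 and SIK1 at −1.21. EdgeR called none of these over 6 (adjusted p = 0.122, 0.103, 0.0869 and 0.104). DESeq2 called 6 of the 10 lower, where 4.9% of all genes were.

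Of 6 glucocorticoid responsive genes, 5 were tested and 1 fell, where 9.76% of all genes did. GADD45B fell by 0.67 ± 0.08 on the log2 scale over 4 libraries (adjusted p = 0.00718, edgeR), with −0.32 ± 0.20 over 6. SGK1 had −0.27 ± 0.08 (adjusted p = 0.0624, edgeR) and TSC22D3 −0.36 ± 0.12 (adjusted p = 0.0747, edgeR) over 4 libraries, and −0.27 and −0.43 over 6. None of the lists was tested as a set.

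**Figure D5:**
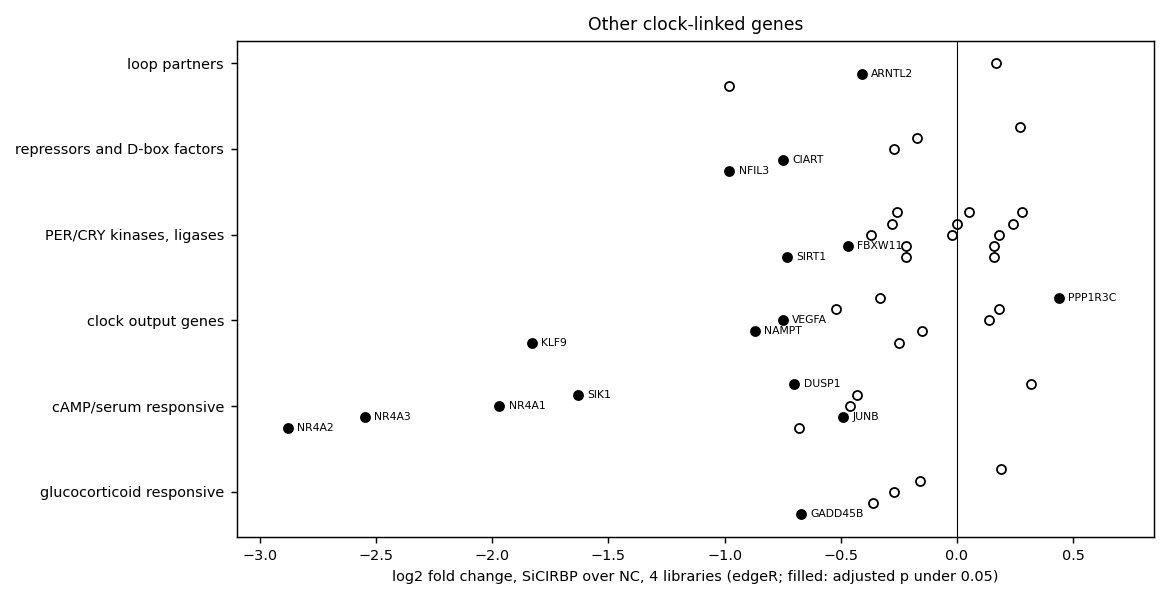
Log2 fold change of SiCIRBP over NC over 4 libraries (edgeR) for each tested gene of the 6 other clock-linked lists, 1 row of points per list; filled, named points had an adjusted p under 0.05. The lowest points are NR4A2 (−2.88), NR4A3 (−2.55), NR4A1 (−1.97), KLF9 (−1.83) and SIK1 (−1.63), and PPP1R3C (0.44) is the filled point above 0.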

How the data were processed

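RNA-seq libraries of 3 NC and 3 SiCIRBP samples were grouped by their labels. The authors deposited an estimated count per gene and library, not normalized and not always whole, and a TPM value scaled by assigned transcript length. The submitters' processing notes name fastp, HISAT, RSEM and hg38, without versions. The deposited table also holds the authors' fold changes and p-values, which were not used. The members and gene lists were chosen with earlier results of these data known.

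Estimated counts were rounded, and edgeR 4.0.16 was run in R 4.3.3 (TMM, filterByExpr, quasi-likelihood test, Benjamini-Hochberg over all tested genes, adjusted p under 0.05), over the 4 libraries of the study's test and over all 6. A standard error was taken as |log2 fold change| divided by the root of F. CPM values use TMM library sizes. TPM was tested as log2(TPM + 1) with limma 3.58.1, and implied length, log2(count/TPM), with limma for genes with at least 10 counts in every library and a mean TPM of at least 1 per group. Permutation tests were exact and two-sided (scipy 1.17.1). Intervals beyond the spread between libraries were not computed, and counts of 52 to 103 for DBP give the least precision. Locations and overlaps came from GENCODE 29, in which 58611 identifiers matched. FBXL21 was replaced by FBXL21P. The tests were also run on simulated data of even spread, without an outlying library. Such a run does not show how they perform on these libraries. Genes named were all members, CIRBP and RBM3, list genes called with at least a 2-fold change plus up to 3 more per list by p, the 3 genes most like each member called at 2-fold, and overlapping genes. RORB, PPARGC1A and PDK4, at 0, which are beyond that rule, and the marker genes given with a fold change were chosen after their values were seen. Alternatives were DESeq2 1.42.0, RLE factors, other filters, TPM with pseudocounts of 1 and 0.1, a replicate block and each library left out. The comparison of overlap in TPM was added after seeing the data. A result for 1 list gene is not reported here.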

Additional observations from a re-analysis of the deposited data

How the results depend on the processing

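The calls rest on which libraries are used. With all 6 libraries in place of 4, with or without the replicate block, 0 members were called lower (0 by at least 2-fold) and 0 other clock-linked genes higher or lower, and CIRBP stood at −1.07 and, with the block, at −1.14. Over 4 libraries on the TPM scale, 0 other genes were called higher with either pseudocount. Leaving out each library of the 4 gave 0 to 4 members lower, 0 to 2 higher and 0 to 2 lower by at least 2-fold, with 0 to 8 other genes higher and 5 to 26 lower, and CIRBP between −0.94 and −0.70. A group left with 1 library is there assumed to vary like the other group, and without NC_2 or NC_3 168 and 64 of all genes were called, against 7048 and 6418 without SiCIRBP_1 or SiCIRBP_3. Over 6 libraries, no filter gave 2 members and 9 other genes lower, where 460 of all 28001 tested genes were called lower. DESeq2 gave 2 members and 11 others lower and 1 higher, where 4.9% of all genes were called lower. Leaving out each library of the 6 gave 0 to 1 members lower, 0 to 1 others higher and 0 to 8 lower. The most were without SiCIRBP_2, where 3.63% of all genes were called lower. TPM gave 5 members with groups apart in place of 1, and CPM per kilobase kept 3 of 10 places. Directions turned for ARNTL, CRY1, CRY2 and CLOCK, none of them called in the fits of 4 or 6 libraries or in the settings that turned them. On the TPM scale ARNTL came to −0.08 and −0.09 over 4 libraries (pseudocounts 1 and 0.1) and −0.10 over 6, CRY2 to −0.09, −0.10 and −0.18, and CRY1 to −0.25 over 6. CRY1 was 0.01 over 6 libraries, −0.002 with no filter and −0.0015 with the replicate block. With a library left out, ranges crossed 0 for CLOCK (−0.19 to 0.01) and ARNTL (−0.04 to 0.50) over 4 libraries and for ARNTL (−0.11 to 0.25) and CRY1 (−0.13 to 0.14) over 6. Implied length crossed 0 over 4 libraries for PER2 (−0.03 to 0.02) and NR1D2 (−0.09 to 0.03), and over 6 for PER1 (−0.19 to 0.08), PER2 (−0.02 to 0.0038), ARNTL (−0.08 to 0.26), NR1D2 (−0.03 to 0.04) and DBP (−0.22 to 0.0012). The adjusted p over 12 alternatives to the fit of 6 libraries ran from 0.00689 to 0.442 for PER1 (3 under 0.05), 0.0239 to 0.444 for NR1D2 (2 under 0.05) and 0.103 to 0.526 for NR1D1 (0 under 0.05). CIRBP missed the threshold without NC_2 (0.0576) or NC_3 (0.106). Of 12 alternatives to the fit of 4 libraries, 8, 9 and 7 kept the calls of PER1, NR1D2 and NR1D1. These 12 include fits of all 6 libraries and fits with 1 of the 4 left out. The labels give a replicate number and do not say whether same-numbered libraries were paired. Their deviations from the group means had correlations of −0.118, 0.006 and −0.026, which cannot settle pairing with 3 libraries per group. The block over 6 libraries called 1 gene of all, against 0 without it. TPM differs from CPM in assigned length and also in library scaling, since only CPM used TMM. Implied length of NR1D1 lay between 0.22 and 0.24 in every library, yet its groups overlapped in CPM and not in TPM. Causes of these differences were not tested.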
